A study of Mus musculus with 12 samples.

Results

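Hox genes encode the homeodomain transcription factors that mark position along the body axis, and 31 of them were read in fetal mouse kidneys kept in culture, some with activated beta-catenin. The members were all genes whose probe set carries a single gene symbol of the form Hoxa, Hoxb, Hoxc or Hoxd with a number. RefSeq lists 39 such genes, and the 31 measured ones are among 12393 genes in all. For a gene with several probe sets (a probe set is the group of array probes that reads 1 transcript), the one with the highest mean over 12 arrays was used. Hox genes without a probe set of their own were not analysed here.

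The series compared 6 wildtype kidneys with 6 in which beta-catenin was activated, all of strain C57BL/6, with total RNA on Affymetrix 3' expression arrays. Per the labels, mothers of both groups were given tamoxifen at 10.5 days post coitum (dpc), the kidneys were taken out at 10.5 dpc, and culture lasted 3 to 4 days. The labels describe the activated kidneys as holding tumors and the wildtype kidneys as normal. They name neither the beta-catenin allele nor the Cre driver, do not say how many days each kidney was kept, and do not say whether the samples of a group came from separate animals, so p-values measure the spread between these samples only. The sample titles hold numbers in 2 separate runs, each with 3 wildtype and 3 activated arrays (1 to 3 of each genotype in the lower run of numbers, 4 to 6 in the higher). The labels do not say what such a run is.

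The mouse Hox genes sit in 4 clusters, A to D, within which the paralogue number, 1 to 13, follows both the order along the chromosome and the front-to-back order of expression. In the kidney, the genes of paralogue group 11 act with Eya1 and Pax2 in the metanephric mesenchyme to switch on Six2 and Gdnf, and mice without them form no kidneys. The genes of group 10 are needed in the renal stroma, and Hoxb7 is expressed in the nephric duct and ureteric bud, where its promoter is widely used to drive transgenes. Beta-catenin is the co-activator of the TCF/LEF factors in Wnt signalling, and Cdx proteins, which Wnt signalling can induce, bind Hox regulatory DNA in the embryo.

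Signal is given throughout as quantile-normalised log2(intensity + 16), in which differences of dim genes are understated. Of the 31 genes, 21 had a mean above the highest reading of 27 probe sets for bacterial control transcripts, 5.45 on this scale, and are called detected here. These were 6 genes of cluster A, 6 of B, 4 of C and 5 of D. The other 10 were Hoxa4, Hoxa7, Hoxa13, Hoxb1, Hoxb7, Hoxb13, Hoxc5, Hoxc13, Hoxd12 and Hoxd13. All measured genes of paralogue groups 12 and 13, the end of the clusters used in the limb tips, hindgut and genital tract, therefore had means below this level. Set against the highest bacterial control of each array itself (4.89 to 5.45), 19 of the detected genes were above it on all 12 arrays, Hoxb9 on 11 and Hoxd1 on 10. The probe set of Hoxb7 was above it on 3 arrays, so these arrays give little information on this ureteric bud gene. Among the genes of groups 12 and 13, Hoxa13 was above it on 4 arrays, Hoxd12 on 3, Hoxc13 and Hoxd13 on 1 each and Hoxb13 on 0. Levels of different probe sets are not compared, since each binds its target with its own strength.

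**Figure D1:**
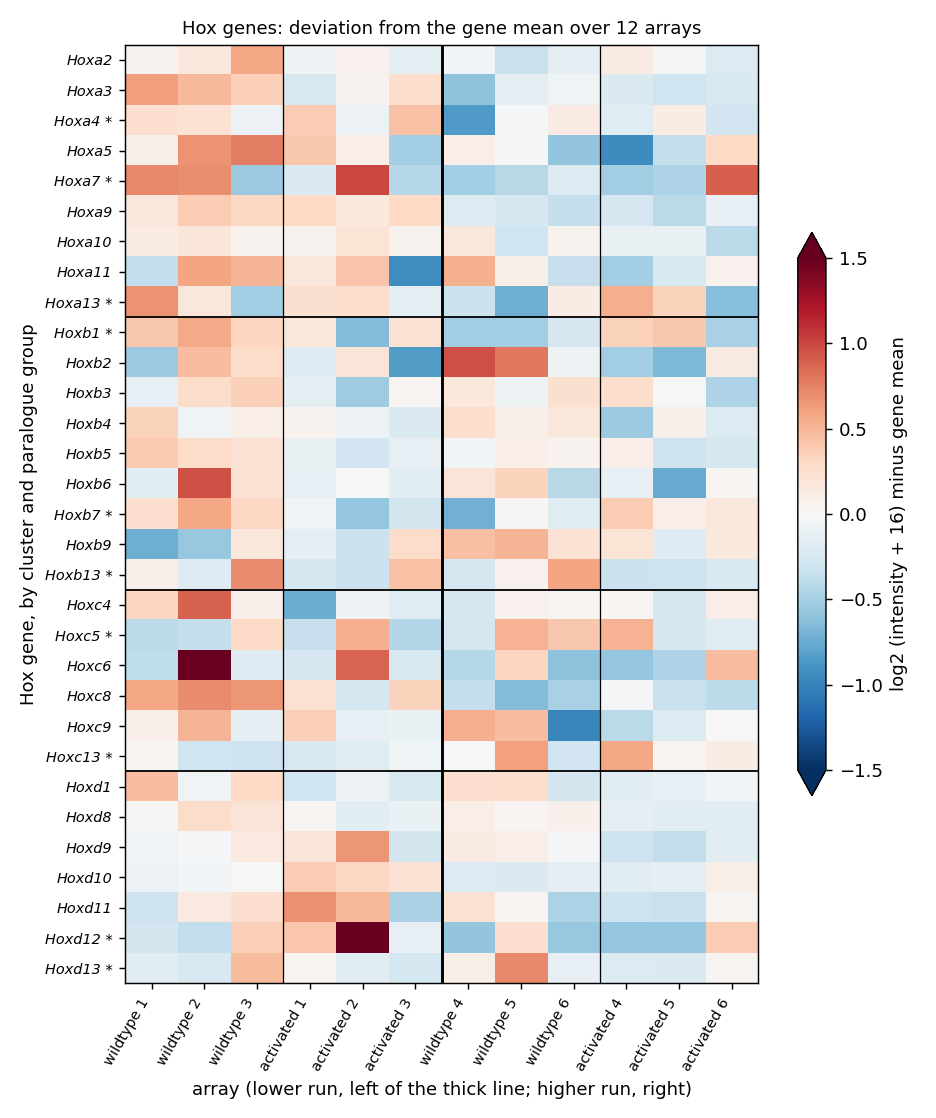
Deviation of each Hox gene from its own mean over 12 arrays, in log2 (intensity + 16), as colour (red above, blue below), with genes in rows by cluster and arrays in columns (lower run left of the thick line). Asterisks mark the 10 genes whose mean was not above the bacterial controls; Hoxc6 in wildtype 2 and Hoxd12 in activated 2 reach the end of the colour scale, and Hoxa9 is red in all lower-run columns and blue in all higher-run columns.

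Promoter sequence of 18 of the measured Hox genes was given by the RefSeq table of GRCm38.p6, as 20 entries. The 250 bases before the start are printed for 3 detected genes, picked after the values had been seen. Hoxd8 had a lower mean in activated kidneys in both runs but did not pass the threshold given below. Hoxa9 and Hoxd10 differed between the runs. Capitals mark matches to the TCF/LEF letters CTTTGAT or CTTTGAA, sought on both strands. The windows are chr2:74704365-74704614 (plus strand) for Hoxd8, chr6:52227371-52227620 (minus strand) for Hoxa9 and chr2:74691641-74691890 (plus strand) for Hoxd10.
Hoxd8: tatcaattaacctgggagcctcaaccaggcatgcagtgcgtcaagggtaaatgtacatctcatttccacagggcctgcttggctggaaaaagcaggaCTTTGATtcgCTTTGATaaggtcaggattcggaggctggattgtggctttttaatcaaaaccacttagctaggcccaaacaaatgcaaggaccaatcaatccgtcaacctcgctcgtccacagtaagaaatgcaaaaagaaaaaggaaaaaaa
Hoxa9: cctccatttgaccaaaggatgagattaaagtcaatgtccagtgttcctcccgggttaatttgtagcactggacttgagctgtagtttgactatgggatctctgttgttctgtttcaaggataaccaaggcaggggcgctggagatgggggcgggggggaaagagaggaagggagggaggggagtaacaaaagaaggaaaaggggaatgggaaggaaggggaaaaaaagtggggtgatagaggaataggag
Hoxd10: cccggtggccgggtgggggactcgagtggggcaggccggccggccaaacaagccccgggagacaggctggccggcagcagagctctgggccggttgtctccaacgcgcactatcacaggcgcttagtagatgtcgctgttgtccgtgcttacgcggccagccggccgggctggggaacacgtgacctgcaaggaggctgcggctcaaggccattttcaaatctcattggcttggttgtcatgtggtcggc
The Hoxd8 window held CTTTGAT at 153 to 147 and again at 143 to 137 bases before the start, both on the plus strand. The Hoxa9 and Hoxd10 windows held neither word. Nor did the window of Hoxb4, not printed here, whose mean was also lower in activated kidneys in both runs (-0.21 in the lower, -0.40 in the higher). Of the 20 Hox windows 2 held a match (10%), those of Hoxd8 and Hoxd12, against 7.48% of 32851 mouse promoter windows of the same length. Hoxd12, an undetected gene, had a higher mean in activated kidneys over 12 arrays, by 0.39. Hoxb2 and Hoxb5, also with lower means in activated kidneys in both runs, had no promoter entry. The CDX words TTTATG or TTTATA stood in 4 of the 20 (20%), against 20.9% of all windows. The joint HOX and PBX word TGATNNAT stood in 3 of 20 (15%), against 7.68%; its first 4 letters can overlap the end of CTTTGAT, though neither Hoxd8 match is part of one. A match is a run of letters in this window and was not tested as a binding site.

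To ask whether activated beta-catenin went with a change in Hox gene signal, the 6 activated arrays were compared with the 6 wildtype arrays by limma's moderated linear model; p-values were adjusted over all 12393 genes by the Benjamini-Hochberg method, and genes under 0.05 passed. No Hox gene passed (0 of 31); among all genes 3 passed, or 0.0242%. At an unadjusted p under 0.05 there were 4 Hox genes (12.9%), Hoxb5, Hoxd8, Hoxb2 and Hoxb4, against 6.15% of all genes. All 4 had the lower mean in activated kidneys. Genes both under that limit and lower were thus 12.9% of the Hox genes and 3.14% of all genes. Of the 762 genes under the limit, 389 were lower. With run as a term of the model 0 of 31 passed as well, against 0.105% of all genes. The groups overlapped for every Hox gene, and 0.5% of all genes had groups that did not. In bulk tissue, fewer cells of a type and less RNA per cell cannot be told apart.

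Most detected Hox genes had a lower mean in activated kidneys. Of the 21, 19 did so (90.5%), against 53.8% of the 8561 genes above the control level, and their median difference was -0.22 against -0.01. Over all 31 the difference was below 0 for 23 (74.2%), against 53.4% of all genes, and the median was smaller, -0.10. Among the 10 undetected genes 4 had a lower mean. The median over all 31 was between -0.20 (without wildtype 6) and -0.09 (without wildtype 3) with 1 array left out, was over 1.5 times its size without wildtype 1, 4 or 6 or activated 2 or 4, and was -0.23 with the dimmest 40% of genes left out. The exceptions among the detected genes were both at the 5' end of cluster D, Hoxd10 and Hoxd11, with differences of 0.23 and 0.04. In cluster B all 6 detected genes were lower, with a median difference of -0.32. In cluster A all 6 were lower with a median of -0.16, and in cluster C all 4 with a median of -0.16. Genes of a cluster are neighbours read on the same arrays, so these counts are descriptions.

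Averaged over the 21 detected genes, the deviation from the gene means was 0.02, 0.37, 0.25, 0.09, 0.06 and -0.20 on wildtype arrays 1 to 6. It was 0.03, 0.08, -0.14, -0.22, -0.27 and -0.06 on activated arrays 1 to 6. The groups overlapped: wildtype 6 lay among the lower activated arrays, while activated 1 and 2 lay among the wildtype ones.

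Hoxb5, an anterior gene of cluster B, ran from 7.70 over a median of 7.90 to 8.14 in wildtype and from 7.43 over 7.55 to 7.84 in activated kidneys. Only activated 4, at 7.84, reached into the wildtype range. The difference was -0.33 (SE 0.12), or 1.26-fold lower, with an adjusted p of 0.663 from limma. Hoxd8, a central gene of cluster D, ran from 9.20 over 9.27 to 9.46 in wildtype and from 9.01 over 9.03 to 9.22 in activated kidneys. Here the single overlapping array was activated 1, at 9.22. The difference was -0.23 (SE 0.09, adjusted p = 0.675 by limma), and both groups were narrow, with SDs of 0.10 and 0.08 (n = 6 each).

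Hoxb2, which patterns the hindbrain, had the widest difference of the detected genes. It ran from 8.26 over 9.18 to 9.77 in wildtype and from 7.96 over 8.45 to 9.00 in activated kidneys, so the groups overlapped widely. The difference was -0.63 (SE 0.25, 95% interval -1.16 to -0.10), 1.55-fold lower, with an adjusted p of 0.719 by limma. Hoxb4, known for the expansion of blood stem cells, ran from 7.03 over 7.22 to 7.43 in wildtype and from 6.54 over 6.94 to 7.16 in activated kidneys. Its difference was -0.30 (SE 0.14, adjusted p = 0.811 by limma), and its second, dimmer probe set gave -0.14 (SE 0.23).

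The paralogue group 11 genes, which the kidney needs, did not differ beyond the spread of the arrays. Hoxa11 ran from 7.53 over 8.21 to 8.50 in wildtype and from 6.98 over 7.82 to 8.33 in activated kidneys, a difference of -0.34 (SE 0.24, 95% interval -0.85 to 0.17, adjusted p = 0.909 by limma). Hoxd11 ran from 6.88 over 7.45 to 7.61 in wildtype and from 6.87 over 7.22 to 8.04 in activated kidneys, a difference of 0.04 (SE 0.22, 95% interval -0.43 to 0.50). The intervals leave room for a fall of Hoxa11 by 0.85 and for a change of Hoxd11 by about 0.5 either way. Hoxc11, the remaining member of the group, was not analysed here. Activated 3 had the lowest value of both genes, 6.98 and 6.87.

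**Figure D2:**
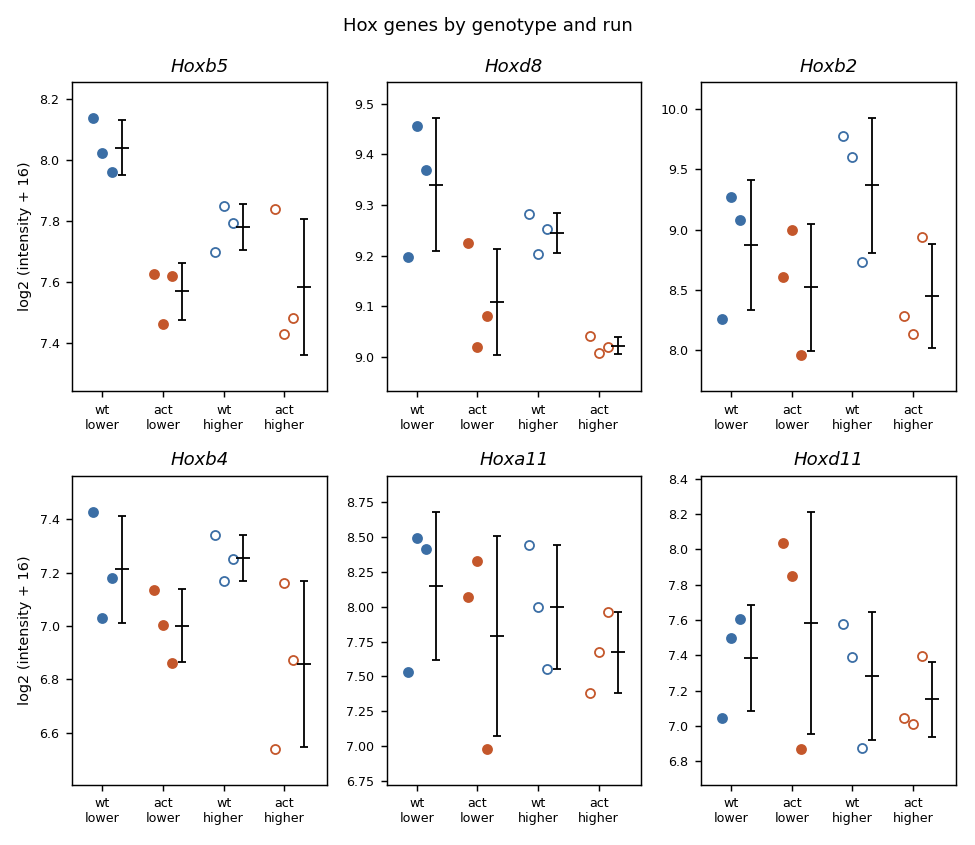
Signal of 6 Hox genes, log2 (intensity + 16), on each array by genotype (blue wildtype, orange activated) and run (filled lower, open higher), with bars for the mean and SD of 3 arrays. In the Hoxb5 and Hoxd8 panels 1 activated array each reaches the wildtype range (7.84 and 9.22), while in the Hoxa11 and Hoxd11 panels the genotypes overlap in both runs.

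The runs were then taken one at a time, 3 activated against 3 wildtype arrays, which share no array. In the lower run, 0 of 31 Hox genes passed the limma threshold, against 0.597% of all genes; 5 had an unadjusted p under 0.05 (16.1%, against 7.07%). The groups did not overlap for 8 Hox genes (25.8%), against 12.5% of all genes: Hoxa3, Hoxb1, Hoxb5, Hoxb7, Hoxc4, Hoxc8 and Hoxd1 had lower values in activated kidneys (7 genes, 22.6%, against 7.09%) and Hoxd10 had higher ones (1 gene, 3.23%, against 5.41%). On the higher-run arrays 0 of 31 passed, against 0.00807% of all genes, and 3 had an unadjusted p under 0.05 (9.68%, against 6.36%). The groups did not overlap for 5 (16.1%), against 11.3% of all genes: Hoxb4, Hoxb9, Hoxd8 and Hoxd9 had lower values (4 genes, 12.9%, against 5.73%) and Hoxb7 had higher ones (1 gene, 3.23%, against 5.6%). No Hox gene other than Hoxb7, which was not detected, appears in both counts, and Hoxb7 went in opposite directions.

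In the lower run 17 of the 21 detected genes had a lower mean in activated kidneys (81%), against 55.3% of all genes above the control level, with a median of -0.32. On the higher-run arrays it was 14 of 21 (66.7%), against 50.2%, with a median of -0.17. Over all 31 genes the medians were -0.21 and -0.16. They moved with single arrays: the lower-run median was -0.06 without activated 3, and the higher-run one -0.05 without wildtype 5 and smaller by over 1.5 times also without wildtype 4, activated 4 or activated 5. Cluster B kept 5 of 6 lower in the lower run and 6 of 6 in the higher run. Clusters A and C had 6 of 6 and 4 of 4 lower in the lower run, but 3 of 6 and 1 of 4 in the higher run.

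Hoxc8, a gene of trunk and brachial identity, had the smallest p in the lower run. It read 9.40, 9.53 and 9.48 on the wildtype arrays and 9.05, 8.56 and 9.16 on the activated ones, so that every activated array was below every wildtype array. The difference was -0.55 (SE 0.18, adjusted p = 0.403 by limma). The higher-run values were 8.46, 8.17 and 8.33 in wildtype and 8.79, 8.48 and 8.42 in activated kidneys, and the means lay the other way round, by 0.24 (SE 0.15).

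Hoxd10, a group 10 gene, had the highest difference of the 4 detected genes whose lower-run mean was higher in activated kidneys. In the lower run it read 9.45, 9.50 and 9.55 in wildtype and 9.92, 9.85 and 9.75 in activated kidneys, with no overlap. The difference was 0.34 (SE 0.12, adjusted p = 0.512 by limma). The higher-run values were 9.33, 9.33 and 9.39 against 9.36, 9.40 and 9.62, a difference of 0.12 with overlapping groups. Hoxc4, of the anterior part of cluster C, differed by -0.76 (SE 0.28, adjusted p = 0.521 by limma) in the lower run and by 0.00 in the higher run.

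Among higher-run arrays the smallest p belonged to Hoxb2. It read 9.77, 9.60 and 8.73 in wildtype and 8.28, 8.13 and 8.94 in activated kidneys, so that wildtype 6 lay below activated 6. The difference was -0.92 (SE 0.29, adjusted p = 0.659 by limma). Hoxd9, a paralogue of Hoxa9, read 8.84, 8.81 and 8.69 in wildtype and 8.40, 8.34 and 8.56 in activated kidneys, with no overlap and a difference of -0.35 (SE 0.12, adjusted p = 0.728 by limma). In the lower run the Hoxd9 difference was 0.16, with activated 2 the highest of all arrays at 9.38. Hoxd8 differed by about the same amount in both runs, -0.23 in the lower and -0.22 in the higher.

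Whether the activation difference itself changed between the runs was tested as an interaction over all 12 arrays. Among the Hox genes 0 of 31 passed, against 0.331% of all genes, and 4 had an unadjusted p under 0.05 (12.9%, against 6.11%). For all 4 the difference was more positive in the higher run. Genes both under that limit and more positive were thus 12.9% of the Hox genes and 2.97% of all genes. Of the 757 genes under the limit, 368 were more positive. Hoxc8 was the leading detected gene, at 0.79 (SE 0.23, adjusted p = 0.306 by limma), followed by Hoxc4 at 0.77 (SE 0.34, adjusted p = 0.773 by limma). The undetected genes were Hoxb7, at 1.20 (adjusted p = 0.265 by limma), and Hoxb1, at 1.05 (adjusted p = 0.639 by limma), whose readings stayed near the bacterial controls. Hoxb7 read 5.08, 5.42 and 5.14 in lower-run wildtype and 4.77, 4.25 and 4.56 in lower-run activated kidneys. These groups differed by -0.69 (SE 0.25, adjusted p = 0.512 by limma). The higher-run values were 4.12, 4.85 and 4.65 in wildtype and 5.22, 4.93 and 5.01 in activated kidneys. Those groups differed by 0.51 (SE 0.24, adjusted p = 0.794 by limma).

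**Figure D3:**
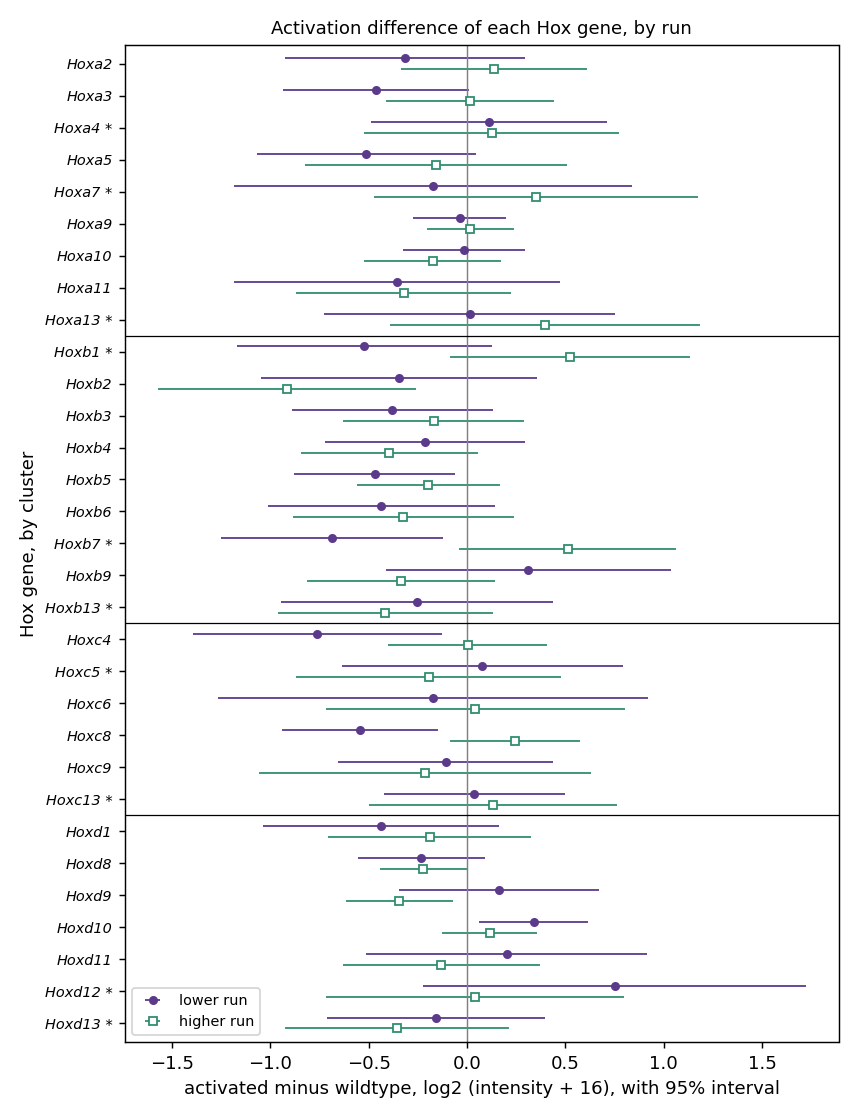
Difference, activated minus wildtype, of each Hox gene in log2 (intensity + 16) with its 95% interval, in the lower run (filled circles) and the higher run (open squares), by cluster; asterisks mark genes whose mean was not above the bacterial controls. In cluster B the detected genes lie left of 0 in both runs except Hoxb9 in the lower run, while Hoxc8 moves from -0.55 to 0.24.

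Cell type markers differed between the same groups. The summed linear signal of 10 nephron progenitor markers was 4014 to 4478 in lower-run wildtype, 1161 to 1282 in lower-run activated, 3556 to 4281 in higher-run wildtype and 2697 to 3745 in higher-run activated kidneys, with all 10 detected. For 9 renal stroma markers, all detected, the ranges in the same order were 14525 to 15978, 10933 to 13575, 14329 to 15021 and 14427 to 15916. For 8 ureteric bud markers they were 3955 to 4747, 2322 to 3011, 4237 to 4994 and 3127 to 3833, with Ret, Wnt9b and Etv4 not above the controls. The lower-run activated kidneys thus had the lowest level of all 3 lists. Of 8 endothelial markers, in contrast, 7 had a higher mean in activated kidneys over 12 arrays and 1 a lower one. Their median difference was 0.36, against -0.01 for all genes. The endothelial and neuron sums are given with the run comparison below. The part of these cell types in the Hox differences was not tested.

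The arrays of the higher run were then compared with those of the lower run. With genotype as a term, 4 of 31 Hox genes were lower in the higher run and 0 were higher (limma, adjusted p under 0.05). That is 12.9%, against 11.1% of all genes in either direction and 4.19% of all genes lower; over both directions the share of Hox genes called is near the background. The 4 were Hoxa9, Hoxc8, Hoxa3 and Hoxd10, all detected genes. Of all 31 genes, 25 had a lower mean in the higher run (80.6%), against 52.6% of all genes, and the median difference was -0.21 against -0.02.

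Lower means in the higher run were counted by cluster, as a description with no test between clusters. In cluster A all 9 measured genes had lower means in the higher run, with a median of -0.37. In cluster C all 4 detected genes and in cluster D all 5 detected genes were lower, with medians of -0.31 and -0.22. In cluster B the 6 detected genes were split 3 and 3, with a median of 0.00. Hoxb9 was the one detected gene with a rise at an unadjusted p under 0.05, 0.44 (SE 0.20, adjusted p = 0.197 by limma).

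Hoxa9, a posterior gene best known from blood stem cells and leukaemia, separated the runs in both genotypes. In the lower run it read 10.99, 11.20 and 11.13 in wildtype and 11.11, 10.98 and 11.11 in activated kidneys. The higher-run values were 10.62, 10.56 and 10.46 in wildtype and 10.57, 10.42 and 10.70 in activated kidneys. The lowest array of the lower run, 10.98, was thus above the highest of the higher run, 10.70, so the runs did not overlap over 12 arrays. That held for 1 of 31 Hox genes (3.23%), against 6.2% of all genes in either direction and 1.95% with lower values in the higher run. The difference was -0.54 (SE 0.07), 1.45-fold lower, with an adjusted p of 0.000103 by limma. Its activation difference was -0.01 (SE 0.16, 95% interval -0.34 to 0.32). Its second probe set, with a mean of 6.71, differed by -0.74 between the runs with a wide error (SE 0.47, adjusted p = 0.408 by limma).

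Hoxc8 had the largest run difference, -0.75 (SE 0.15, adjusted p = 0.00451 by limma), 1.68-fold lower. Within wildtype kidneys it was -1.15 (SE 0.12, adjusted p = 0.00121 by limma), 2.22-fold lower, while within activated kidneys it was -0.36 (SE 0.20, adjusted p = 0.477 by limma) with overlapping groups. The lower-run wildtype kidneys thus had the highest Hoxc8 of the 4 groups. The interaction given above, 0.79, is the test of that contrast, and it did not pass.

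Hoxa3, needed for thymus and parathyroid, read 8.01, 7.88 and 7.75 in lower-run wildtype kidneys and 7.15, 7.44 and 7.65 in lower-run activated ones. The higher-run values were 6.79, 7.25 and 7.32 in wildtype and 7.17, 7.08 and 7.16 in activated kidneys. The wildtype runs did not overlap, and the activated runs overlapped slightly, at 7.15 and 7.17. The difference was -0.52 (SE 0.15, adjusted p = 0.0326 by limma). This probe set may share probes with another transcript, and the other Hoxa3 probe set gave -0.27 (SE 0.17, adjusted p = 0.413 by limma). Hoxd10 was lower by a small amount, -0.26 (SE 0.08, adjusted p = 0.0441 by limma), with 9.62 on activated 6 the only higher-run value above the lowest of the lower run. The calls of Hoxa3 and Hoxd10 were lost when single arrays were left out, with adjusted p-values up to 0.0782 without wildtype 4 and 0.108 without activated 1 (limma). The count of Hox genes past the threshold was 2 without any one of wildtype 2 to 6, activated 3 or activated 5, and 2 with arrays centred on their medians.

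Taken by genotype, 3 Hox genes passed within wildtype kidneys (9.68%), against 5.09% of all genes: Hoxc8, Hoxa9 and the undetected Hoxb1 (adjusted p = 0.0497 by limma). Within activated kidneys 1 passed (3.23%), against 2.78% of all genes, and that was Hoxa9, at -0.51 (SE 0.11, adjusted p = 0.0446 by limma). Hoxa11 and Hoxd11 differed between the runs by -0.13 and -0.27, with adjusted p-values above the threshold.

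Macrophage markers, 8 of 8 detected, summed to 769 to 1397 and 678 to 1215 in the lower run and to 1753 to 2344 and 2107 to 2567 in the higher run (wildtype first). Of these markers 6 of 8 passed as higher in the higher run (limma), against 11.1% of all genes that passed in either direction. Endoderm markers, of which only Afp was detected, summed to 97.6 to 135 and 77.2 to 101 in the lower run and to 398 to 524 and 151 to 317 in the higher run. The list did not move as a whole: 3 of its 7 genes had higher means in the higher run and 4 lower, with a median difference of -0.01. All 3 with higher means passed and 0 passed as lower (limma), against the same 11.1% of all genes. Neuron and neural crest markers, with 4 of 8 detected, summed to 629 to 824, 259 to 334, 415 to 543 and 387 to 571 in the 4 groups, and endothelial markers, with 6 of 8 detected, to 561 to 1167, 878 to 1421, 609 to 746 and 985 to 1072. Of 8 skeletal muscle markers 7 were not above the controls, Myod1, Myog and Myf5 among them. The part of these cell types in the run differences of Hox genes was not tested.

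**Figure D4:**
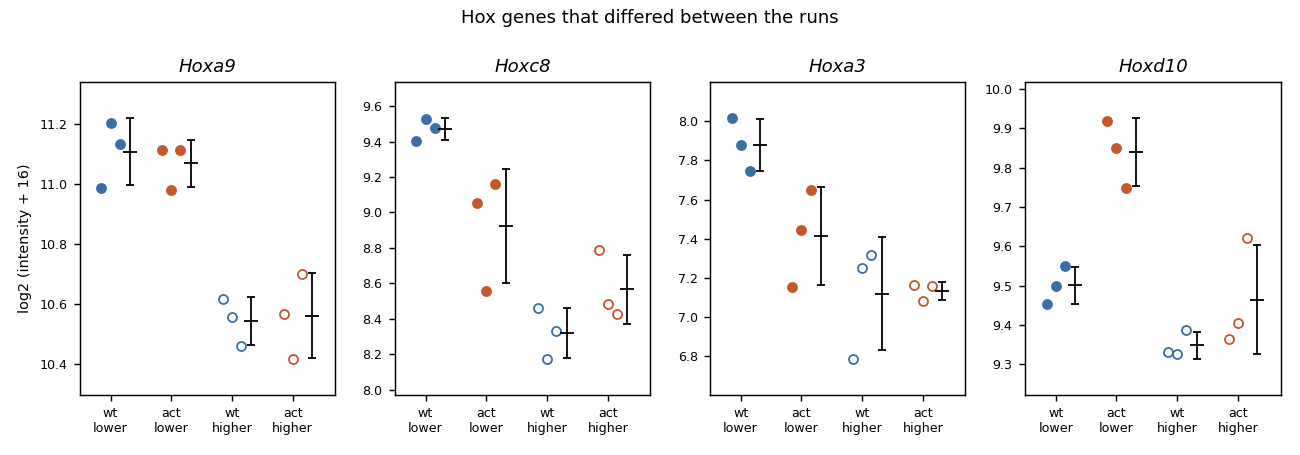
Signal of the 4 Hox genes that differed between the runs, log2 (intensity + 16), on each array by genotype (blue wildtype, orange activated) and run (filled lower, open higher), with bars for the mean and SD of 3 arrays. The Hoxa9 values of the higher run, 10.42 to 10.70, all lie below those of the lower run, 10.98 to 11.20, in both genotypes, while Hoxc8 separates fully in wildtype kidneys only.

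Hoxc6, a thoracic gene, varied most among the detected genes over the 12 arrays, with an SD of 0.65. On the probe set used it followed neither genotype nor run. It was high on wildtype 2 (8.54), activated 2 (7.93), activated 6 (7.52) and wildtype 5 (7.38), and lay between 6.44 and 6.86 on the other 8. Its signal rose with the 5'/3' ratio of the array's own Gapdh and beta-actin probe sets, which falls as RNA degrades or labelling stops short, with Pearson's r = 0.811 (n = 12, permutation p = 0.00349, 0.0535 after adjustment over the 31 relations computed) and Spearman's rho = 0.881 (permutation p = 0.00029, adjusted likewise 0.00899). Leaving out activated 2 and activated 6, the 2 arrays with ratios farthest from the median, gave r = 0.923, and r was 0.758 within the lower and 0.845 within the higher run. This relation was looked for after the values were seen. Of the 31 genes, 6 had an unadjusted p under 0.05 for r and 0 passed the adjustment. The other 5 were Hoxa7, Hoxd12, Hoxb3, Hoxd9 (r = 0.636) and Hoxd10 (r = 0.573). For rho 2 passed the adjustment, Hoxc6 and the undetected Hoxd12, whose r was 0.815 and fell to 0.359 without the same 2 arrays (rho = 0.839, adjusted permutation p = 0.0155).

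The probe sets of 1 gene disagreed here. The second Hoxc6 probe set was high on the same 4 arrays, at 7.96, 7.49, 7.21 and 7.63. The other Hoxc6 probe set read 5.93, 5.11, 6.00 and 6.01 on them and was highest on wildtype 1, at 6.88. Its activation difference was -0.65 (SE 0.38) in the lower and 0.89 (SE 0.31) in the higher run. The interaction on this probe set was 1.54 (SE 0.50, adjusted p = 0.526 by limma over 20380 probe sets). The second probe set of Hoxa9 was high on wildtype 2 and activated 2, at 8.27 and 8.24. It read 7.31 on activated 6, 7.57 on wildtype 5 and 7.33 on wildtype 3, against 5.44 to 6.49 on the others. The one used for Hoxa9 was highest on wildtype 2, at 11.20, and read 10.98, 10.70 and 10.56 on activated 2, activated 6 and wildtype 5. Wildtype 2, wildtype 5 and activated 6 also had a low mean of 3 Y-linked genes, 4.30, 4.48 and 4.24, against 7.38 to 8.65 on the others. The part of the Y-linked level in the values of Hoxc6 and of the second Hoxa9 probe set was not tested. With a Y-linked term in the limma model, no Hox gene passed for activation over 12 arrays. Between the runs the Hoxa9 probe set used still passed with that term, a fit added after the data were seen.

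**Figure D5:**
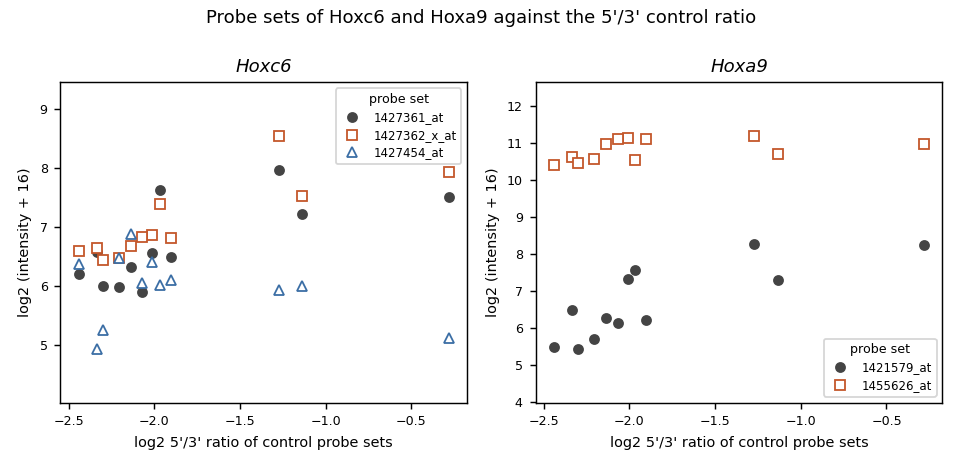
Signal of the single-gene probe sets of Hoxc6 and Hoxa9, log2 (intensity + 16), against the log2 5'/3' ratio of the control probe sets, 1 point per array and probe set. Both Hoxc6 probe sets drawn as circles and squares are high on the 3 arrays with the highest ratios, whereas the set drawn as triangles is not, and the bright Hoxa9 probe set stays between 10.42 and 11.20.

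Genes around the Hox system were taken from lists. Of the cofactors that bind DNA with Hox proteins (the Pbx, Meis and Pknox families), 8 of 9 were measured. Over the 12 arrays 0 passed and 1 had an unadjusted p under 0.05 (limma), against 0.0242% and 6.15% of all genes. Meis2, a TALE homeodomain partner, was lower in the activated kidneys of the lower run (-0.83, SE 0.13, adjusted p = 0.0183 by limma) and differed by -0.17 in the higher run. Between the runs all 8 cofactors had lower means in the higher run, with a median of -0.31, against 52.6% of all genes with a lower mean. Of them 2 passed, against 11.1% of all genes in either direction: Pbx2, at -0.43 (adjusted p = 0.00882 by limma), and Pknox2, at -0.53 (adjusted p = 0.0423 by limma), whose mean was not above the controls.

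Of the upstream regulators (Cdx, Evx and others), 10 of 12 were measured. For activation 0 passed in either run and 1 in each run had an unadjusted p under 0.05 (limma), against 7.07% of all genes in the lower and 6.36% in the higher run. Evx1, the neighbour of cluster A whose mean was not above the controls, had the smallest p in the lower run, at 1.39 (SE 0.33, adjusted p = 0.139 by limma). Between the runs 2 of 10 passed, 1 in each direction, against the same 11.1%. Gmnn, encoding the replication and Polycomb partner geminin, was lower in the higher run (-0.80, adjusted p = 0.000131 by limma). Egr2, the hindbrain activator of Hoxa2 and Hoxb2, was higher there (1.33, adjusted p = 6.12e-05 by limma). Hoxa2 and Hoxb2 themselves differed between the runs by -0.21 and 0.21.

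Of the Polycomb genes, whose products keep silent Hox clusters closed, 14 of 16 were measured. For activation over 12 arrays 0 passed and 0 had an unadjusted p under 0.05 (limma). Between the runs 2 of 14 were lower in the higher run, a share near the 11.1% of all genes that passed in either direction. They were Ezh2, the histone H3K27 methyltransferase, at -0.42 (adjusted p = 0.0106 by limma), and Jarid2, which recruits it, at -0.55 (adjusted p = 0.00756 by limma). Of the Trithorax group and the H3K27 demethylases, 7 of 10 were measured and 0 passed or had an unadjusted p under 0.05 in any of the 5 comparisons (limma). Over 12 arrays all 7 had lower means in activated kidneys, as did 53.4% of all genes, with a median of -0.13 against -0.01 for all genes.

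Retinoic acid induces the anterior Hox genes, and 10 of 11 genes of its receptors and enzymes were measured. For activation 0 passed over 12 arrays, with 3 under an unadjusted 0.05 (6.15% of all genes), while 1 of 10 was lower in the lower run (0.597% of all genes passed there in either direction) and 0 passed in the higher run, where 0 were under an unadjusted 0.05 (limma). It was Aldh1a2, the enzyme that makes retinoic acid in the stroma (-1.09, SE 0.13, adjusted p = 0.00454 by limma), and the interaction passed (0.99, SE 0.17, adjusted p = 0.0222 by limma). Between the runs 1 of 10 passed, near the share of all genes (11.1%). It was Aldh1a3, which was higher in the higher run (1.24, adjusted p = 0.000762 by limma).

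A further list held genes that paralogue group 11 works with or acts on in the mesenchyme, and the ureteric bud gene Ret. Of these, 6 of 8 were measured, and all 6 had lower means in activated kidneys over 12 arrays and 5 of 6 within each run. Six2, Gdnf, Eya1 and Itga8 are also among the nephron progenitor markers above. Ret, not above the controls, is among the ureteric bud markers. The list is therefore not separate from those markers. Over 12 arrays 0 passed and 3 had an unadjusted p under 0.05 (6.15% of all genes), in the lower run 1 passed (0.597% of all genes), and in the higher run 0 passed and 0 had an unadjusted p under 0.05 (limma). Six2 was the one that passed, lower in activated kidneys of the lower run (-2.01, SE 0.19, adjusted p = 0.00155 by limma) with a difference in the higher run of -0.29 (SE 0.21, adjusted p = 0.881 by limma). The interaction passed (1.72, SE 0.30, adjusted p = 0.0253 by limma). The Hoxa11 difference was -0.36 in the lower and -0.32 in the higher run, and that of Hoxd11 0.20 and -0.13. Without activated 3 the lower-run Hoxa11 difference was 0.05. Gdnf differed by -1.28 in the lower run (SE 0.29, adjusted p = 0.123 by limma).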

How the data were processed

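RNA of 12 cultured kidneys was measured on Affymetrix 3' expression arrays, per the labels. The deposited values are 1 linear intensity per probe set and array (0.0693 to 23037.5), with equal array means near 250 after trimming 2% from each end; the summarising software: not given in the sources used here. Of 22690 probe sets, 20380 had 1 gene symbol in the platform annotation; 691 with several (3 of them with a Hox gene), 1555 with none listed and 64 controls were left out. Of 12393 genes, 12369 matched RefSeq by identifier, all 31 Hox genes among them. Intensities were taken as log2(intensity + 16) and quantile-normalised, since array medians differed by up to 0.29.

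Models were fitted with limma 3.58.1 (lmFit, eBayes with a variance trend) in R 4.3.3, two-sided, and figures drawn in Python 3.11.15. The 5 comparisons were genotype over 12 arrays, genotype in each run, their interaction, and run with genotype as a term. The fits were checked on simulated data. Full values are given for Hox genes past the threshold, the 4 with the smallest p in each comparison, paralogue group 11 and Hoxb7; of the lists, members past the threshold or with the smallest p. Hoxc6 and its 5'/3' relation (100000 permutations) and the printed promoters were picked once values had been seen. The members, lists and tests were chosen with earlier results of these data known. Array numbers limit the precision, and correlations between arrays (0.943 to 0.978) showed no repeated array. Alternatives covered normalisation, offset, dim genes, probe sets, variance model, array weights, added terms, threshold and each array left out.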

Additional observations from a re-analysis of the deposited data

Results flagged for a closer look

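Of 62 groups of 6 arrays (31 Hox genes, 2 genotypes), 6 held an array set apart from the other 5 by more than Dixon's 95% limit, and chance flags about 1 in 20 groups. Among detected genes, Hoxa10 was low on wildtype 5, at 8.69 against 9.04 to 9.18 on the others. Hoxb6 was low on activated 5, at 7.78 against 8.37 to 8.56. Hoxd8 was high on activated 1, at 9.22 against 9.01 to 9.08, and this is the array that brought its groups to overlap. Among genes not above the bacterial controls, Hoxa4 was low on wildtype 4, at 4.12 against 4.88 to 5.22. Hoxb13 was high on activated 3, at 4.84 against 4.07 to 4.17, and Hoxc13 was high on wildtype 5, at 5.04 against 4.11 to 4.45.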

How the results depend on the processing

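No Hox gene passed in the activation comparison over 12 arrays, in either run or in the interaction under any alternative run. The count over all genes moved. Over 12 arrays it was 3, and became 1 with the mean of all probe sets, 1 with no variance trend, 0 at an adjusted p under 0.01, 13 with run as a term, 78 with run and 5'/3' control signal as terms, 104 with the effect averaged over the runs (added after the data were seen) and 0 to 4 with 1 array left out. In the lower run it was 74, and became 39 with no variance trend, 186 with array weights, 34 at 0.01, 188 with the spread pooled over the runs and 30 to 87 with an array left out. In the higher run it was 1, and became 2 with median-centred arrays, 0 with the mean of probe sets, 0 with no trend, 3 with robust variances, 2 with pooled spread and 0 to 1 with an array left out. For the interaction it was 41, and became 18 with median-centred arrays, 24 with no trend, 88 with array weights, 13 at 0.01 and 16 to 47 with an array left out. For the run comparison it was 1379, and became 687 at 0.01, 631 in wildtype and 345 in activated arrays.

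The 4 Hox genes lower in the higher run became 2 with median-centred arrays, 2 at 0.01, 1 in activated arrays and 2 to 5 with an array left out. Hoxc8 was lost only in the activated arrays alone, and Hoxa9 with the mean of its probe sets (adjusted p = 0.142, limma) or its second probe set. Hoxa3 (0.0648) and Hoxd10 (0.265) were lost with median-centred arrays, and Hoxd10 also without quantile normalisation (0.0904), without a variance trend or genotype term, with robust variances and with a 5'/3' term. The activation difference of Hoxd11 changed sign with array weights (-0.043), with run and 5'/3' terms (-0.063) and with arrays left out (-0.099 to 0.135, lower-run arrays alone -0.026 to 0.559, higher-run arrays alone -0.333 to 0.017). That of Hoxb7 did so with array weights (0.092) and arrays left out (-0.240 to 0.020), and that of Hoxa11 with arrays left out of the lower run (-0.665 to 0.049). The Hoxa11 interaction changed sign with array weights (-0.151) and arrays left out (-0.371 to 0.343). The run difference of Hoxb7 changed sign in activated arrays (0.524) and with arrays left out (-0.203 to 0.086), and that of Hoxa11 with the 5'/3' term (0.079, added after the data were seen). The cause was not tested. No paired analysis was possible because the title numbers all differ and the replicate numbers only name the arrays. Signals near the bacterial controls limit what can be said of the 10 undetected genes.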
